A study of Mus musculus with 2 samples.

Results

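Cytotoxic granule and effector genes were followed through scRNA-Seq libraries of cardiac CD45+ cells, across NK cells, T cells, innate lymphoid cells, and myeloid cells. The 7 members, Gzma, Gzmb, Prf1, Nkg7, Ifng, Fasl, and Cma1, were chosen by name, and they are 7 of the 23946 genes that have a UMI (a unique molecular identifier, which marks 1 captured transcript) in either library. All 7 were present in both libraries, and none of them was used to define a cell type.

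The hearts came from wild-type C57BL6 female mice, given as C57BL/6J in the methods. The TTS library was made 24 hours after an i.p. injection of isoproterenol (ISO) at 200 mg/kg, a β-adrenergic agonist that brings on a cardiomyopathy resembling Takotsubo syndrome (TTS), and the Control library was made after an injection of PBS vehicle. The treatment field gives ISO for both libraries, so the Control group rests on its title and on the study's methods. Live CD45+ cells were sorted from 3 pooled hearts per group and 15000 cells were loaded, which gave 1 library per group, so no difference between Control and TTS has a replicate check and no test was possible. Intervals are 95% and cover counting error only.

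After the cell filters, 5641 Control cells held 41651434 UMIs and 5437 TTS cells held 55443553 UMIs, with a median of 4790 and 8537 UMIs per cell. Cells were assigned to types by marker UMIs, without clustering. NK cells needed at least 3 UMIs from at least 2 of 9 NK genes (Ncr1, Klrb1c, Klre1, Klra4, Klra7, Klra8, Klra9, Klri2, and Eomes) and at most 1 UMI of the CD3 complex, and T cells needed at least 2 CD3 UMIs. Lymphoid barcodes with at least 5000 CPM of macrophage, monocyte, and neutrophil markers (CPM are UMIs scaled to the total of the same cells) were set apart as mixed barcodes. Such a barcode can hold a lymphoid and a myeloid cell together or a lymphoid cell with myeloid RNA, and these cannot be told apart here. The libraries shared 15 cell barcodes, of which 1 was among the NK cells of each library.

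Cytotoxic lymphocytes store perforin and granzymes in secretory granules and release them toward a target cell, where perforin forms pores in the membrane and the granzymes, which are serine proteases, cleave proteins inside the cell. The same cells can kill through Fas ligand, which engages the death receptor Fas, and can secrete IFN-γ, which activates macrophages. Mast cells and basophils carry granules of their own, and their serine proteases belong to the same family as the granzymes.

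The members lie at 6 places in the genome (GRCm38, GENCODE release M21). Gzma, encoding granzyme A, is at chr13:113093825-113100981 on the minus strand. Gzmb, encoding granzyme B, is at chr14:56258838-56262260 on the minus strand, and Cma1, encoding mast cell chymase, is at chr14:55941451-55944675 on the same strand. Prf1, encoding perforin, is at chr10:61297833-61304680 on the plus strand, and Ifng, encoding IFN-γ, is at chr10:118441046-118445892 on the same strand, where it overlaps the gene model Gm49751. Nkg7, encoding a granule membrane protein needed for granule release, is at chr7:43437073-43438249 on the plus strand, and Fasl, encoding Fas ligand, is at chr1:161780689-161788495 on the minus strand.

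The 250 bases before the RefSeq start (GRCm38.p6) are shown for Gzma, Gzmb, and Cma1, since these 3 genes differed in the cells that carried them: Gzma was held by NK and T cells, Gzmb also by basophils, and Cma1 by mast cells as well as NK cells. They are printed on the strand of the gene, at chr13:113100982-113101231, chr14:56262335-56262584, and chr14:55944676-55944925, all on the minus strand, with matches to the RUNX motif TGTGGT or its reverse ACCACA in capitals.
Gzma: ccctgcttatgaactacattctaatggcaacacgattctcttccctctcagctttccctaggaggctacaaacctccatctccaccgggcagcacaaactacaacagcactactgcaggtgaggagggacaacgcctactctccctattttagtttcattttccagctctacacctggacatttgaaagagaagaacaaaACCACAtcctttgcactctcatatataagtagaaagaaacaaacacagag
Gzmb: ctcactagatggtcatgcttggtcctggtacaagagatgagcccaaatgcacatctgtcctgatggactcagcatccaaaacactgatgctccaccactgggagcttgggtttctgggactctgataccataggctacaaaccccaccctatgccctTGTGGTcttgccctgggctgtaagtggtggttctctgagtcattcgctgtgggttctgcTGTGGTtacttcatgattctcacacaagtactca
Cma1: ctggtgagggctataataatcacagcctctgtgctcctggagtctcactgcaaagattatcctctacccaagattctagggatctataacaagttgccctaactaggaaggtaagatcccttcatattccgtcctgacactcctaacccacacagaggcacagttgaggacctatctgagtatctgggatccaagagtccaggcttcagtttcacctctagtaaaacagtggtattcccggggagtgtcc
The RUNX letters stood 50 to 45 bases before the RefSeq start of Gzma, on the opposite strand, and 93 to 88 and 34 to 29 bases before the RefSeq start of Gzmb. The RefSeq start of Gzmb lies upstream of the GENCODE model given above, so these distances are not measured from that model. Both strands of the windows of all 7 members were searched for 9 motifs, and RUNX was found in 4 members (Gzma, Gzmb, Prf1, and Nkg7) against 14.05% of 32851 mouse windows. The T-box motif AGGTGTGA was found in Nkg7 alone among the members, 14 to 7 bases before its RefSeq start, against 1.12% of all windows. This match and 65 bases of that window lie inside the longer GENCODE model of Nkg7. The AP-1 motif TGACTCA was found in Gzmb alone, against 4.46%. The ETS motif AGGAAGT was found in Prf1 and Fasl against 7.69%, the NFAT motif TGGAAA in Gzma against 18.6%, the STAT motif TTCNNNGAA in Nkg7 and Ifng against 7.02%, and the TATA motif TATAAA in Ifng against 12.4%. The GATA motif AGATAA and the CRE motif TGACGTCA were found in none of the 7 windows, against 9.99% and 1.55%. The window of Cma1 held none of the 9 motifs. These matches describe letters in a window and not bound sites.

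NK cells were the main carriers of 6 of the 7 members in Control and made up a far smaller part of the TTS library. There were 435 NK cells in Control, 7.71% of the cells (7.03 to 8.44), with a median of 3699 UMIs, and 29 in TTS, 0.533% (0.357 to 0.765), with a median of 4093 UMIs. In Control and TTS NK cells the NK markers summed to 6305 and 4593 CPM and the CD3 markers to 8.15 and 28.5 CPM. The macrophage markers summed to 124 and 207 CPM and the monocyte markers to 885 and 748 CPM. The gate itself sets limits on these lists, so their levels describe the gated cells and do not check the gate. A further 72 Control and 68 TTS barcodes carried NK markers together with myeloid transcripts. They were 14.2% (11.3 to 17.5) of all NK barcodes in Control and 70.1% (60.0 to 79.0) in TTS, with medians of 12485 and 13491 UMIs.

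Gzma was the member held most by NK cells. Its 21898 UMIs in Control NK cells gave 11904 CPM (11747 to 12063), and its 1444 UMIs in TTS NK cells gave 10283 CPM (9759 to 10827). Among single cells, the lowest, median, and highest counts were 0, 48, and 222 UMIs in Control and 0, 45, and 179 in TTS, so the ranges overlapped over nearly their whole length. The TTS over Control difference was -0.21 on the log2 scale (-0.29 to -0.13), and its sign turned to 0.07 with the myeloid limit halved and to 0.05 with cells thinned to 1000 UMIs.

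Gzmb had 2487 UMIs and 1352 CPM (1299 to 1406) in Control NK cells and 238 UMIs and 1695 CPM (1486 to 1924) in TTS NK cells. Single cells held 0 to 47 UMIs with a median of 4 in Control, and 0 to 36 with a median of 6 in TTS. The log2 difference of 0.33 (0.13 to 0.52) fell on the other side of 0, at -0.06, when 2 marker UMIs were enough for an NK cell, and at -1.43 when mixed barcodes were counted. The granzymes thus stood on opposite sides of 0 with this gate, and neither sign held under every gate.

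Prf1 had 858 UMIs and 466 CPM (436 to 499) in Control NK cells, and 53 UMIs and 377 CPM (283 to 494) in TTS. The intervals overlapped, and the log2 difference was -0.29 (-0.73 to 0.10), so a difference in perforin was not detectable at this depth. Nkg7 was at 3466 CPM (3382 to 3552) from 6376 UMIs in Control and at 3048 CPM (2766 to 3351) from 428 UMIs in TTS. Its log2 difference was -0.18 (-0.33 to -0.04), which turned to 0.02 with the myeloid limit halved and to 0.07 with thinned cells. Nkg7 was the member found in the largest share of NK cells, 99.1% in Control and 96.6% in TTS.

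Fas ligand and IFN-γ transcripts rested on few UMIs in TTS. Fasl was at 359 CPM (332 to 387, 660 UMIs) in Control NK cells and at 214 CPM (144 to 305, 30 UMIs) in TTS, a log2 difference of -0.73 (-1.33 to -0.22), which was -0.10 with cells thinned to 2000 UMIs. Ifng was at 342 CPM (316 to 370, 630 UMIs) in Control and at 484 CPM (376 to 614, 68 UMIs) in TTS, a log2 difference of 0.51 (0.12 to 0.86), which was -0.99 when mixed barcodes were counted. Single NK cells held 0 to 32 Ifng UMIs with a median of 0 in Control, and 0 to 14 with a median of 1 in TTS. Fasl counts per cell were low in both libraries, at most 7 UMIs in Control and 3 in TTS with a median of 1 in each.

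Cma1 had the largest log2 difference of the 7 members in these NK cells, though not with cells thinned to 1000 UMIs, where Ifng was at 0.95 and Cma1 at -0.32. Control NK cells held 683 UMIs, 371 CPM (344 to 400), with 0 to 14 UMIs per cell and a median of 1, and TTS NK cells held 13 UMIs, 92.6 CPM (49.3 to 158.3), with 0 to 4 per cell and a median of 0. The TTS UMIs came from 6 of 29 cells, and 1 cell held 30.8% of them, while 259 of 435 Control cells had a UMI. The log2 difference was -1.95 (-2.92 to -1.22), or 3.87-fold higher in Control (2.33 to 7.57). It was negative in all 15 alternative settings, from -2.83 to -0.32. The mast cell proteases that mark mast cells were at or near 0 in the same NK cells, with no Mcpt4 UMI in either library, and Tpsb2 with no UMI in Control and 1 in TTS. Barcodes with at least 5 UMIs of such proteases were gated as mast cells first, so these low values are partly set by the gate.

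**Figure D1:**
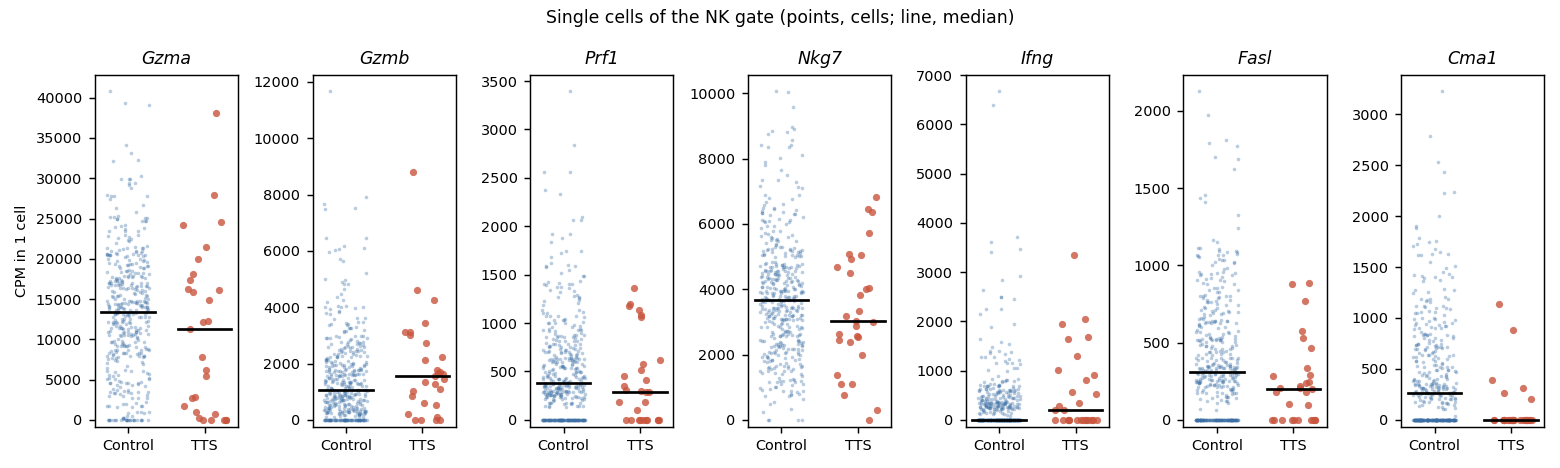
Per-cell CPM of the 7 members in NK cells, 1 point per cell, with Control and TTS side by side and a bar at the median over cells. The Control and TTS clouds of Gzma, Gzmb, and Nkg7 overlap, with medians of 13430 and 11232 CPM for Gzma, while the median of Cma1 is 259.5 CPM in Control and 0 in TTS.

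A 2-fold difference between the libraries was used as the limit for describing all genes of NK cells alike. Of 8015 genes with at least 20 UMIs in NK cells, 9.62% were at least 2-fold higher and 13% at least 2-fold lower in TTS, with a median log2 difference of -0.02. Of the 7 members, 0 were past the limit upward and 1, Cma1, was past it downward, and their median was -0.21. The members as a group thus stood near the bulk of the genes measured in these cells, which leave out the mixed barcodes.

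The share of NK cells with a UMI was also compared at matched depth, with 434 of 435 Control and all 29 TTS cells deep enough. With cells thinned to 1000 UMIs, Gzma was found in 92.2% of Control and 75.9% of TTS NK cells (94.7% and 82.8% without thinning), and Gzmb in 58.3% and 69.0% (83.2% and 86.2%). Fasl was found in 31.1% (26.8 to 35.7) of Control and 10.3% (2.2 to 27.4) of TTS cells after thinning, and in 72.2% and 65.5% without it. Cells that lack the cytotoxic program gave the background: Gzma had a UMI in 0.512% of thinned Control B cells and 1.47% of thinned Control macrophages, and in 2.66% and 4.29% without thinning, at median depths of 3256 and 5867 UMIs. The remaining members were found in 36.6% and 31.0% (Prf1), 92.9% and 86.2% (Nkg7), 21.2% and 34.5% (Ifng), and 26.7% and 13.8% (Cma1) of thinned Control and TTS NK cells.

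Most NK cells carried several members together. In Control, 77 of 435 cells (17.7%) had a UMI of all 7, 149 (34.3%) had 6, and 106 (24.4%) had 5. In TTS, 1 of 29 cells (3.45%) had all 7, 7 (24.1%) had 6, and 12 (41.4%) had 5. Both granzymes were found in 354 of 435 Control and 22 of 29 TTS cells. Across single cells, as a description over cells that share a library, Pearson's r of Gzma with Gzmb was 0.47 in Control and 0.58 in TTS, and that of Ifng with Fasl was 0.03 and -0.21.

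The NK gate would also admit type 1 innate lymphoid cells (ILC1), which share NK receptors, so the cells were split by 4 ILC1 markers. A UMI of an ILC1 marker (Cxcr6, Itga1, Tmem176b, or Il7r) was found in 53 of 435 Control cells (12.2%, 9.26 to 15.6) and 11 of 29 TTS cells (37.9%, 20.7 to 57.7). Cells with such a UMI had a median of 4873 UMIs in Control and 4538 in TTS, against 3597.5 and 4036.5 in those without one. The split was not made at matched depth. In TTS 42 of the 59 UMIs of these markers were Tmem176b, which was also at 733 CPM in ILC2 and 822 CPM in T cells, while Cxcr6 was at 21.7 and 35.6 CPM and Itga1 at 10.3 and 14.2 CPM in Control and TTS NK cells. The 4 markers summed to 83.7 and 420.1 CPM in NK cells and to 24.2 and 144 CPM in B cells, so a UMI of them does not name a cell as an ILC1. Eomes, a T-box factor of NK cells, was found in 24 of those 53 and in 0 of those 11. Cells with such a UMI had less Gzma, 5205 CPM in Control and 3068 CPM in TTS, against 13240 and 15410 CPM in the cells without one. Within the cells without an ILC1 marker, the log2 differences were 0.22 for Gzma, 0.85 for Gzmb, 0.13 for Prf1, 0.07 for Nkg7, 1.09 for Ifng, -0.61 for Fasl, and -1.70 for Cma1. The sign of Gzma (0.14 to 0.30) was turned against that over the whole gate. The signs of Prf1 and Nkg7 were turned as well, but their intervals spanned 0 (-0.34 to 0.55 and -0.10 to 0.23). Within the cells with an ILC1 marker the log2 differences were -0.76, -1.02, -0.78, -0.29, -1.16, -0.49, and -1.34 in the same order. Gzma, Gzmb, Prf1, Nkg7, and Ifng thus stood on opposite sides of 0 in the 2 sets of cells. For Gzma, Gzmb, and Ifng the intervals lay clear of 0 in both sets, and for Prf1 and Nkg7 they spanned 0 in both. Cma1 and Fasl had negative values on both sides of this split, which was made after the values were seen. In the cells with an ILC1 marker the intervals of Cma1 (-3.88 to 0.09, 3 TTS UMIs) and Fasl (-1.67 to 0.40) spanned 0. The part of these cells in the differences over the whole gate was otherwise not tested.

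In mixed NK barcodes the log2 differences ran from -1.65 (Prf1) to -0.26 (Ifng). The interval was below 0 for 6 members and spanned 0 for Ifng (-0.72 to 0.20). Of the 7 members, 4 were at least 2-fold lower and 0 higher in TTS, with a median of -1.09. Among 8056 genes with at least 20 UMIs there, 11.9% were 2-fold lower and 7.63% higher, with a median of -0.11. In these barcodes CPM are also set by the myeloid transcripts, so the members were divided by the NK markers of the same barcodes. Per 100 NK marker UMIs, Gzma stood at 189 (186 to 191) in Control and 224 (212 to 236) in TTS NK cells, and at 182 and 140 in mixed barcodes. Ifng stood at 5.43 (5.02 to 5.87) and 10.5 (8.19 to 13.4) in NK cells and at 5.21 (4.18 to 6.42) and 9.23 (7.30 to 11.5) in mixed barcodes, higher in TTS in both. Cma1 stood at 5.89 (5.46 to 6.35) and 2.02 (1.07 to 3.45) in NK cells, and its intervals overlapped in mixed barcodes, at 4.67 (3.70 to 5.83) and 3.55 (2.40 to 5.07). Gzmb, at 21.4 and 36.9 in NK cells, was at 20.5 (18.4 to 22.8) and 22.4 (19.3 to 25.8) in mixed barcodes. Nkg7 was at 55.0 (53.6 to 56.3) and 66.4 (60.2 to 73.0) in NK cells and at 53.2 and 53.0 in mixed barcodes. Fasl overlapped in both, at 5.69 (5.26 to 6.14) and 4.65 (3.14 to 6.64) in NK cells and 4.62 (3.65 to 5.76) and 6.51 (4.90 to 8.47) in mixed barcodes, as did Prf1, at 7.40 and 8.22 and at 7.75 (6.48 to 9.20) and 5.21 (3.78 to 6.99). On this scale the TTS values of Gzma and Nkg7 in NK cells were above those of Control, against the sign of their CPM. The NK markers that form the scale were themselves at 6305 CPM in Control and 4593 CPM in TTS NK cells. A higher value on it can therefore come from fewer marker UMIs.

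**Figure D2:**
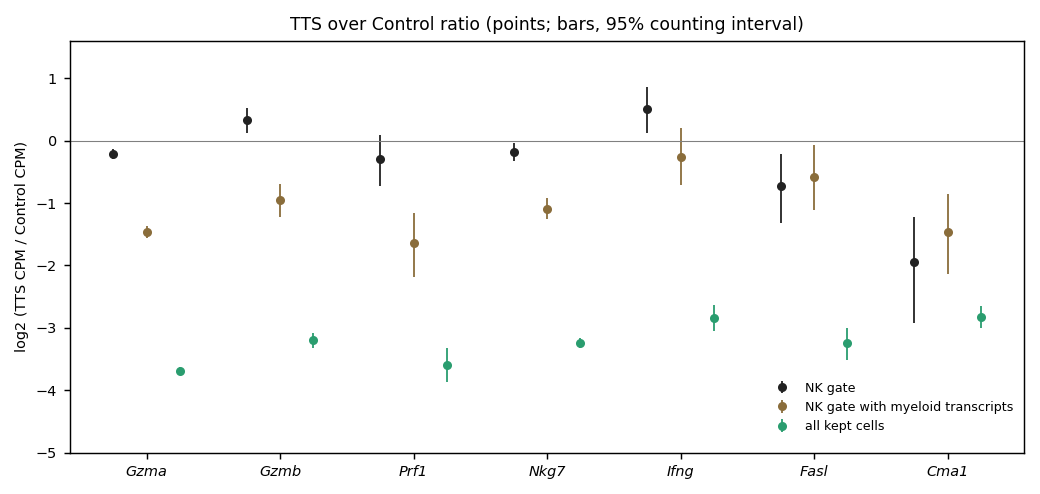
Log2 differences of TTS over Control for the 7 members, with 95% counting intervals, in NK cells, in mixed NK barcodes, and over all kept cells. Over all kept cells every member lies between -3.69 and -2.82, while in NK cells the members lie between -1.95 and 0.51.

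Summed over all kept cells, every member was lower in TTS. Gzma was at 661 CPM in Control and 51.3 CPM in TTS, a 12.9-fold lower value, and Prf1 at 27.4 and 2.27 CPM. Nkg7 was at 230.3 and 24.3 CPM, Fasl at 24.9 and 2.61, Gzmb at 96.4 and 10.5, Ifng at 30.5 and 4.26, and Cma1 at 42.0 and 5.95 CPM. All 7 were 2-fold lower and 0 were 2-fold higher, against 31.5% lower and 6.9% higher of 15976 genes, and the median log2 difference over all genes was -0.52. The 9 NK markers together were at 366 and 38.2 CPM, a log2 difference of -3.26 (-3.33 to -3.19), and the CD3 markers differed by -2.36. In sums over a whole library, fewer cells of a type and less RNA per cell cannot be told apart. The number of NK cells and the level within them, given above, both depended on the treatment of mixed barcodes. With mixed barcodes counted, NK barcodes were 8.99% of Control and 1.78% of TTS cells. The log2 differences within them then ran from -2.83 (Cma1) to -0.99 (Ifng), though CPM there are also set by myeloid transcripts.

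T cells carried the members at lower levels and unevenly. There were 241 T cells in Control and 36 in TTS, and 445 and 193 mixed T barcodes were left out of them. Nkg7 was at 335 CPM in Control and 313 CPM in TTS, where 1 cell gave 21 of 56 UMIs, with a UMI in 38.2% and 27.8% of cells. Its log2 difference was -0.08 (-0.52 to 0.30), and it was 0.81 (-0.04 to 1.56) with cells thinned to 1000 UMIs. With mixed barcodes counted Nkg7 was at 108.5 and 54.0 CPM, and the interval of its log2 difference lay below 0 (-1.25 to -0.78). Gzma was at 386 CPM in Control, where 3 cells with 384, 115, and 41 UMIs held 89.3% of its 605 UMIs and 15 of 241 cells had any. In TTS it had 0 UMIs in 36 T cells, and 3 UMIs, the floor used for a count of 0, would be 16.8 CPM there. Ifng was in 21 Control T cells with 87 UMIs, 55.5 CPM, and had 0 UMIs in TTS, with the same floor. When 6 marker UMIs were required of an NK cell, more cells were left to the T gate and Ifng was higher in TTS there, with a log2 difference of 1.03. Gzmb was at 61.9 and 112 CPM, Prf1 at 11.5 and 16.8, and Fasl at 27.5 and 39.1, from at most 20 UMIs each in TTS, and the intervals of the log2 differences of Prf1 and Fasl spanned 0. Of the 20 Gzmb UMIs in TTS T cells, 11, 6, and 2 came from 3 cells, and the log2 difference of 0.88 (0.08 to 1.56) turned to -0.23 when mixed barcodes were counted.

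Among T cells, CD8 cells held 568 of 605 Gzma, 94 of 97 Gzmb, and 421 of 524 Nkg7 UMIs in Control, but 39 of 87 Ifng and 20 of 43 Fasl UMIs. Nkg7 was in 74.2% of 93 Control CD8 cells at 683 CPM and in 69.2% of 13 TTS CD8 cells at 954 CPM, against 131 CPM in 56 Control CD4 cells and 0 UMIs in 3 TTS CD4 cells. Gzmb was at 152 CPM in Control CD8 cells, and all 11 of its UMIs in TTS CD8 cells came from 1 cell. Gzma was at 921 CPM in Control and had 0 UMIs in TTS. Gamma delta T cells numbered 18 and 7 and held 1 UMI of Nkg7 and none of the other members.

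Barcodes with both NK and CD3 transcripts, 30 in Control and 7 in TTS, held the highest Ifng of all cell types, 986 CPM in Control and 982 CPM in TTS. In Control 2 cells gave 134 and 40 of the 210 UMIs, and in TTS 1 cell gave 21 of 22, so neither level describes a typical cell. Nkg7 was at 1727 and 1919 CPM and Fasl at 249 and 268 CPM in these barcodes. Gzma was at 2713 CPM in Control and 357 CPM in TTS. An NKT-like cell and a pair of cells in 1 droplet give the same markers and cannot be told apart here.

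**Figure D3:**
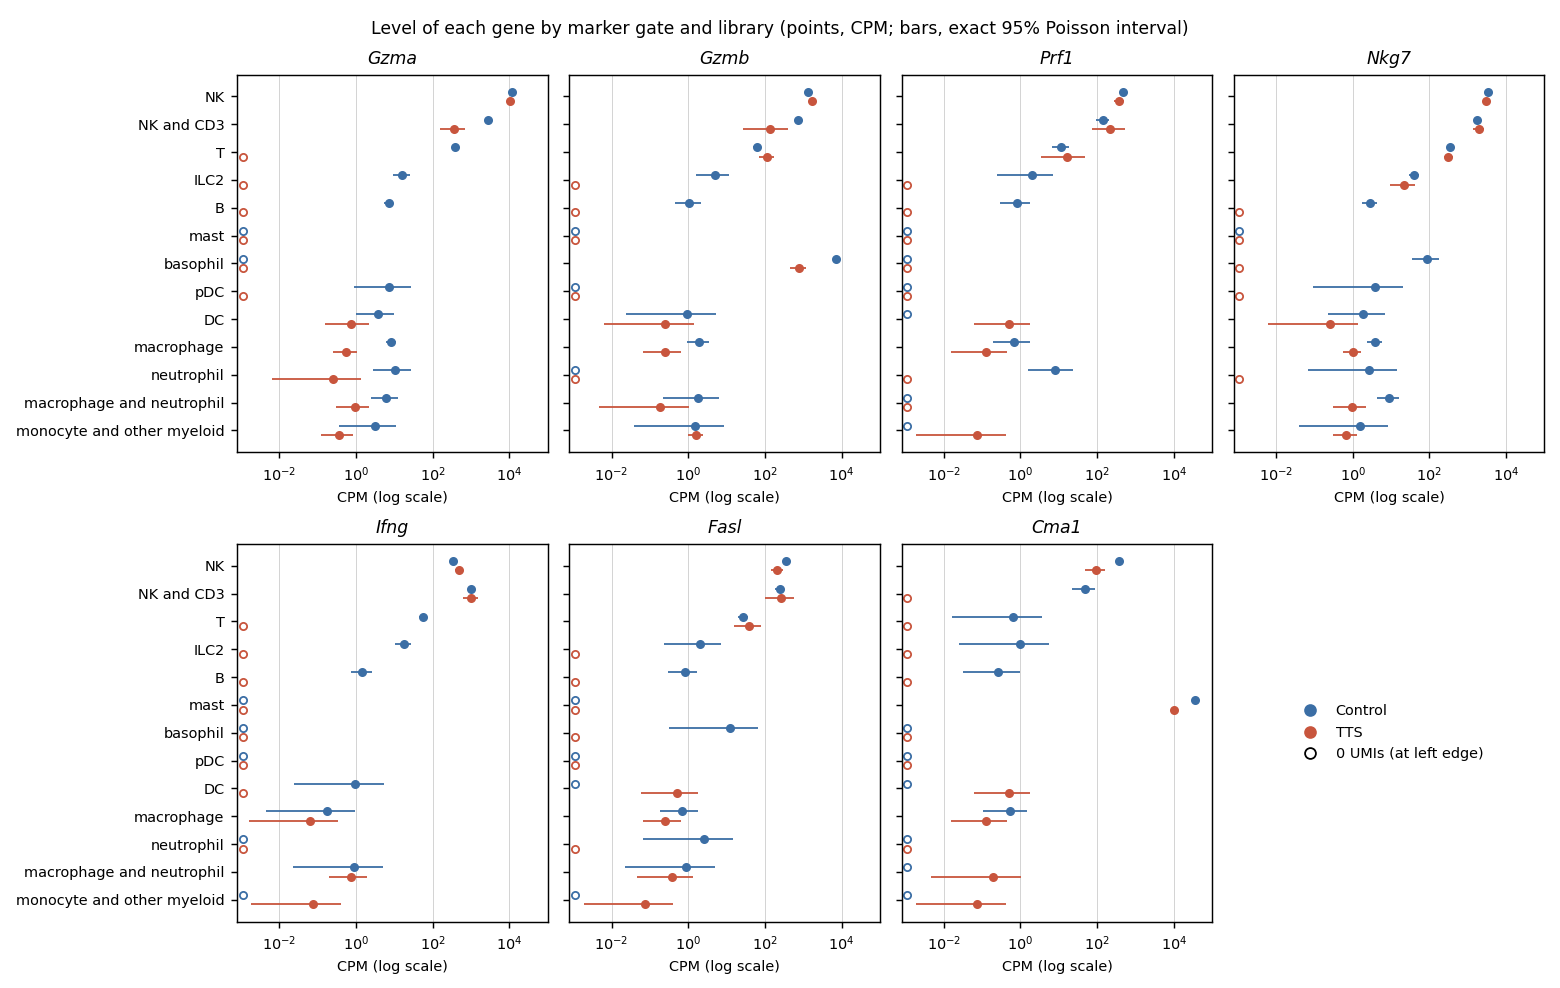
CPM of the 7 members by cell type on a log axis, Control and TTS as separate points with 95% Poisson intervals, and open points where no UMI was counted. NK cells lie highest or next to highest for every member, behind mast cells for Cma1, basophils for Gzmb in Control, and barcodes with NK and CD3 transcripts for Ifng and for Fasl in TTS.

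Type 2 innate lymphoid cells (ILC2), which release type 2 cytokines, had little of the cytotoxic program. In 166 Control ILC2, Nkg7 was at 40.5 CPM, Ifng at 17.8, Gzma at 15.8, Gzmb at 4.93, and Prf1 and Fasl at 1.97 each. In 89 TTS ILC2, Nkg7 was at 21.6 CPM and the other 6 members had 0 UMIs, which allows up to 8.11 CPM each. B cells gave a reference for free RNA, with Gzma at 7.08 CPM and Nkg7 at 2.81 CPM in 1958 Control cells and 0 UMIs of any member in 53 TTS cells, which allows up to 12.4 CPM. Fibroblast and endothelial markers were at 283 CPM in Control and 4412 CPM in TTS B cells. In ILC2 they were at 2372 and 1033 CPM, so the cells of these gates were not alike in the libraries. The counting intervals of Control ILC2 and B cells did not overlap for Nkg7 (29.0 to 54.9 and 1.74 to 4.29 CPM) and Ifng (10.5 to 28.1 and 0.733 to 2.63), and those for Gzma overlapped (9.02 to 25.6 and 5.30 to 9.26). In Control ILC2 1 cell held 17 of the 41 Nkg7 UMIs, 1 held 11 of the 18 Ifng UMIs, and 1 held 9 of the 16 Gzma UMIs.

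Macrophages, monocytes, neutrophils, and dendritic cells together held almost none of the members. Over 1299 Control and 4301 TTS myeloid cells, Gzma was at 7.13 and 0.536 CPM, Nkg7 at 4.01 and 0.723, Gzmb at 1.67 and 0.630, Prf1 at 0.780 and 0.117, Fasl at 0.668 and 0.210, and Ifng at 0.334 and 0.140. Gzma was 1657-fold (1307 to 2169) higher in NK cells than in myeloid cells in Control, and Fasl, the member with the lowest such value in Control, was 496-fold (245 to 1468) higher. In TTS Gzma was 18770-fold (12726 to 30341) higher, and Cma1, the lowest there, 634-fold (235 to 2123). The 7.13 CPM of Gzma in Control myeloid cells stood beside 7.08 CPM in Control B cells, the reference for free RNA. The part of free RNA in these ratios was not tested. Of the Gzmb in TTS, 21 UMIs lay in 6 cells of the monocyte and other myeloid group, 16 of them in 1 cell.

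Cma1 and Gzmb each had a strong source outside the lymphoid cells. Mast cells, 6 in Control and 3 in TTS, held 93, 348, 132, 172, 96, and 93 Cma1 UMIs per cell in Control and 139, 100, and 40 in TTS. The Control level of Cma1 was 35004 CPM (32794 to 37322). The TTS level was 10040.3 CPM (8897 to 11290), and there the cell with 139 UMIs also had 17573 CPM of myeloid markers and 1 Mcpt4 UMI. None of the other 6 members had a UMI in a mast cell of either library. Mast cells held 53.3% of the Cma1 UMIs of Control and 84.5% of those of TTS, against 39.0% and 3.94% for NK cells.

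Basophils, 15 in Control and 3 in TTS, carried Gzmb without Gzma. In Control 12 of 15 cells had 2 to 120 Gzmb UMIs, 598 in all, which gave 7318 CPM (6743 to 7929), above the 1352 CPM of NK cells. In TTS 2 cells had 11 and 6 UMIs, 757 CPM (441 to 1212), and the third cell was recognized by 2 Fcer1a UMIs alone and had 33008 CPM of myeloid markers. Gzma had 0 UMIs in basophils of both libraries, Nkg7 had 7 in Control, and Fasl had 1. Basophils held 14.9% of the Gzmb UMIs of Control and 2.93% of those of TTS.

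**Figure D4:**
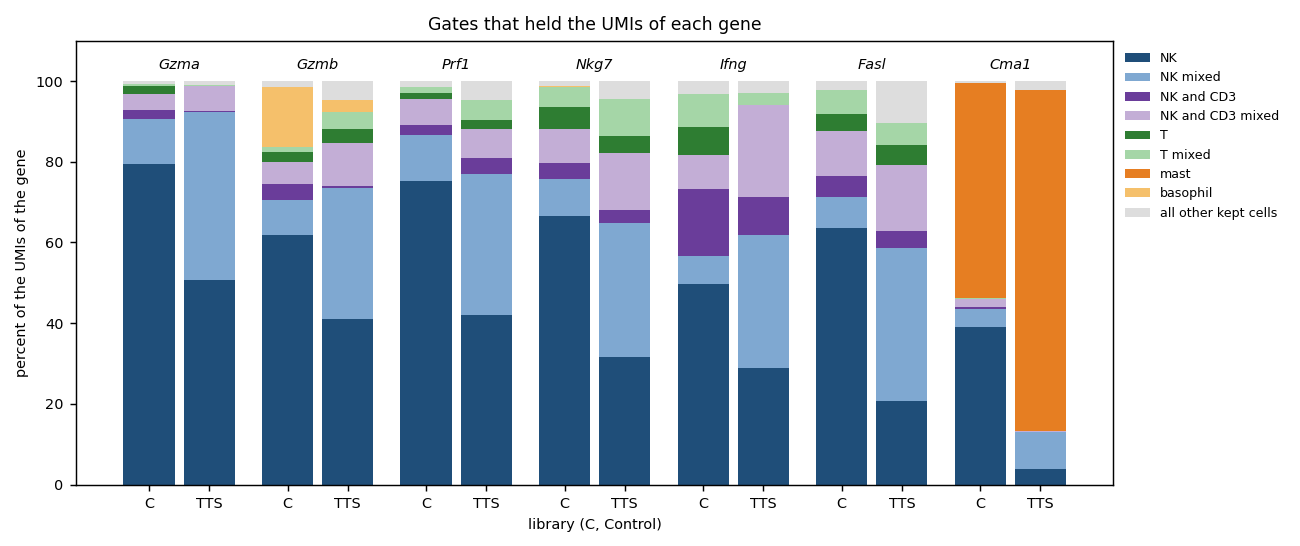
Percent of the UMIs of each member that fell in each cell type, 1 bar per library, summing to 100. NK and CD3 cell types with and without myeloid transcripts hold 99.4% and 99.1% of Gzma in Control and TTS but 46.1% and 13.3% of Cma1.

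The division of the UMIs among cell types followed these levels. In Control, NK cells held 79.5% of Gzma, 75.1% of Prf1, 66.5% of Nkg7, 63.7% of Fasl, 61.9% of Gzmb, and 49.6% of Ifng. In TTS they held 50.7%, 42.1%, 31.7%, 20.7%, 41.0%, and 28.8% in the same order, and mixed NK barcodes held 41.5%, 34.9%, 33.2%, 37.9%, 32.5%, and 33.1%. All NK and CD3 cell types together, with and without myeloid transcripts, held at least 83.6% of each of these 6 members in both libraries. Across the 14 cell types, ordered by level, 9 to 11 of the 13 neighbouring pairs had overlapping intervals for each member and library. In TTS the NK cells and the barcodes with NK and CD3 transcripts overlapped in Prf1 and in Fasl, and in Control the highest and the next type did not overlap for any member.

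Gzmb and Cma1 are neighbours, 314 kb apart on chromosome 14, in a stretch with 15 protein-coding genes, 9 of which were measured. Of the genes between them, Mcpt4 lies 115 kb from Cma1 and had 817 of its 825 Control UMIs in mast cells, and Mcpt8 lies 137 kb from Cma1 and had 76 of 81 in basophils, both having been used to define those cells. Gzmc lies 287 kb from Cma1, next to Gzmb in the files, and had 116 of 280 Control UMIs in basophils, 1420 CPM, and 16 in NK cells, 8.70 CPM. T cells held 1 and mast cells and macrophages 0, so more of the 280 lay in the remaining cell types, mixed barcodes included, than in basophils. Gzmc was not used to define any cell type. The granzymes of this stretch are similar in sequence, and whether the counting split reads among them was not given in the sources used here.

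**Figure D5:**
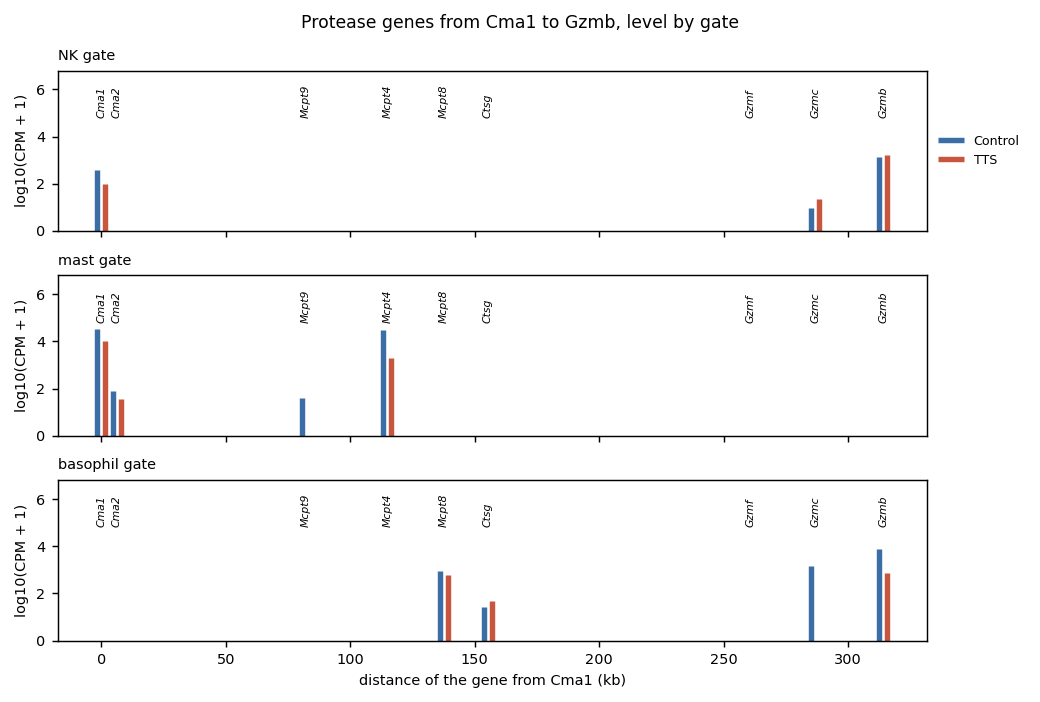
CPM of the measured genes between Cma1 and Gzmb as log10(CPM + 1), in NK cells, mast cells, and basophils, 1 panel each and 1 bar per library, against distance from Cma1 in kb. Cma1 is high in mast cells and present in NK cells, and Gzmb, 314 kb away, is high in basophils and NK cells.

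The other genes of the pathway were taken as 43 genes in 7 lists. Of the other granzymes, Gzmd, Gzme, and Gzmg had no entry in either library. None of the rest had 20 UMIs in NK cells, and Gzmm and Gzmk were at 7.07 and 2.17 CPM in Control and had 0 UMIs in TTS. Of 8 genes of granule loading and release, 0 were 2-fold higher and 1 was 2-fold lower in TTS, Rab27a, a GTPase of granule docking (-1.35, -3.86 to 0.02, with 3 UMIs in TTS). Srgn, encoding the proteoglycan that packs granule proteases, was at 903 CPM in Control and 1602 CPM in TTS, and was also higher in TTS in B cells (1358 and 1944), ILC2 (1033 and 2439), and T cells (1076 and 1527). The fibroblast and endothelial markers of B cells and ILC2, given above, also differed between the libraries, and their part in Srgn was not tested. Of 4 granzyme inhibitors none was past the limit, and Serpinb9, which blocks granzyme B, was at 910 and 1196 CPM.

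Of 7 other effector cytokines and death ligands, 2 were 2-fold higher in TTS NK cells and 0 lower, against 9.62% and 13% of all genes. Tnf, encoding TNF, was at 19.0 CPM (35 UMIs) in Control and 78.3 CPM (11 UMIs) in TTS, a log2 difference of 2.09 (0.92 to 3.05). Tnf was also at 636 and 1469 CPM in myeloid cells, and Lyz2, a myeloid transcript, was at 126 and 221 CPM in the NK cells, whose part in the Tnf value was not tested. Xcl1, a chemokine for dendritic cells, was at 650 and 1325 CPM, 1.03 (0.80 to 1.25). The chemokines Ccl5, Ccl3, and Ccl4 differed by -0.49, -0.35, and -0.05. Of 7 regulators, 2 were 2-fold lower and 0 higher, with a median of -0.95 against -0.02 over all genes. Zeb2, a factor of NK cell maturation, was at 625 CPM in Control and 207 CPM in TTS (-1.57, -2.18 to -1.07), and Eomes, which is also a marker of the gate, was at 371 and 171 CPM (-1.09, -1.77 to -0.53). Runx3 differed by -0.96, Prdm1 by -0.95, Stat4 by -0.56, Tbx21 by -0.55, and Id2 by -0.20. The larger share of TTS cells with an ILC1 marker moves with these values, and its part in them was not tested.

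On the receiving side, of 4 receptor genes 2 could be compared in NK cells, with 1 higher, Ifngr2, on 4 UMIs in TTS, and 0 lower. Of 6 target genes of IFN-γ, 3 could be compared in NK cells, where Gbp2 was 2-fold higher on 7 UMIs in TTS, and Irf1 differed by -0.31. In myeloid cells, which bear the IFN-γ receptor, 4 of these 6 targets were 2-fold lower in TTS and 0 higher, against 22.7% lower and 6.96% higher of 13650 genes there, with a median of -1.26 against -0.32 over all genes. In macrophages Cxcl9 was at 27.4 and 0.751 CPM, Ciita at 47.8 and 11.3, and Irf1 at 228 and 95.4, while Cxcl10 was at 191 and 340 CPM. The macrophage markers of the same cells were at 15853 CPM in Control and 6054 CPM in TTS and the monocyte markers at 16120.4 and 21730.4 CPM, so the cells gated as macrophages were not alike in the libraries, and the part of this in the target genes was not tested.

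The genes whose levels ran most like each member across cell types were sought among 13981 genes over 33 combinations of cell type and library with at least 20 cells, which share 2 libraries. Pearson's r on log2(CPM + 1) is given as a description. Gzma ran with Klrc1 (0.96), Eomes (0.96), and Klra7 (0.95), and Ifng with Klrc1 (0.96), Gzma (0.95), and Xcl1 (0.94). Prf1 and Fasl ran most like each other (0.97), Nkg7 ran with Il2rb, Fasl, and Txk (0.95 each), and Gzmb with Samd3, Adamts14 (0.94 each), and Nkg7 (0.93). Cma1 ran with Klra13-ps (0.99), Klra4, and Klra8 (0.97 each), mast cells being too few to enter. Eomes, Klra4, Klra7, and Klra8 are markers of the NK gate, and the Klra genes are similar in sequence. Pairs of members had r from 0.80 (Nkg7 with Cma1) to 0.97.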

How the data were processed

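CD45+ cells of mouse hearts were measured by 10x scRNA-Seq in 1 Control and 1 TTS library. The deposited values are raw UMI counts per gene and cell barcode, without normalization. Per the submitters' processing notes and the methods, the authors used bcl2fastq 2.19.1.403, UMI-tools 1.0.0, STAR 2.7.3a, and featureCounts 1.6.4 on mm10. The annotation, the strand setting, and the treatment of reads that match several genes were not given in the sources used here. Reads of overlapping and near-identical genes may therefore be split or lost.

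Following the methods, barcodes entered with over 500 but below 6000 genes and a mitochondrial share below 25% (5641 of 5927 in Control, 5437 of 5514 in TTS). Cells were gated by marker UMIs, in the order mast cell, basophil, NK, NK with CD3, T, ILC2, B, plasmacytoid dendritic, dendritic, macrophage, neutrophil, and other myeloid. The gate limits were set after the depth was seen. No doublet caller was run, and lymphoid barcodes with at least 5000 CPM of myeloid markers were kept apart. UMIs were summed per gate and library and given as CPM. With 1 library per group there was no test. Counts have exact Poisson intervals and shares exact Clopper-Pearson intervals. Log2 ratios had 0.5 UMI added to each count, 0 UMIs were read as allowing up to 3, and genes with at least 20 UMIs in a gate were compared with a 2-fold limit. Python 3.11.15, numpy 2.4.6, scipy 1.17.1, pandas 2.3.3, and matplotlib 3.10.9 were used, and the ratio step was tested on simulated data. Promoter windows came from RefSeq (GRCm38.p6), and all 7 members were matched. Shorter and longer letters of the RUNX and T-box motifs were also looked at.

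The members and lists were chosen with earlier results of these data known. The genes named are the 7 members, the genes of the 7 pathway lists, markers where a gate is checked, the 3 genes whose pattern was most like that of each member, and the genes between Cma1 and Gzmb. The last, and the split by ILC1 markers, were chosen after their values were seen. The value of 1 gene of the pathway lists is not reported here. The alternatives changed the marker minimum, the markers, the myeloid limit, the CD3 limit, the cell filters, the weight and depth of cells, and the scaling.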

Additional observations from a re-analysis of the deposited data

How the results depend on the processing

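No paired analysis was possible because there is 1 library per group. In NK cells the log2 difference of TTS over Control of the 7 members was recomputed in 15 settings, giving 105 values, of which 83 kept their sign and moved by less than the counting error, 15 moved by more, and 7 changed sign. With a minimum of 2 marker UMIs, Gzma was at -0.60, Nkg7 at -0.57, and Gzmb, with a changed sign, at -0.059. With mixed barcodes counted, Gzma was at -1.95, Prf1 at -2.04, Nkg7 at -1.75, Fasl at -1.81, and, with changed signs, Gzmb at -1.43 and Ifng at -0.99, and in T cells Gzmb at -0.23. With the myeloid limit halved, Gzma (0.066) and Nkg7 (0.021) changed sign and Gzmb was at 0.62, and with it doubled Gzma was at -0.37 and Nkg7 at -0.34. With no CD3 UMI allowed, Gzma was at -0.30 and Gzmb at 0.094. With cells thinned to 1000 UMIs, Gzma (0.046) and Nkg7 (0.072) changed sign, Ifng was at 0.95 and Cma1 at -0.32, and with 2000 UMIs Gzma was at -0.090 and Fasl at -0.096. The cause was not tested. Without the 15 shared barcodes, an alternative added after the data were seen, no sign changed, and Cma1 was at -1.89. With a minimum of 50 UMIs, 5.35% of genes in NK cells were 2-fold higher and 11.2% 2-fold lower, and over all kept cells 28.9% were 2-fold lower. Across settings the NK gate held 368 to 507 Control and 21 to 97 TTS cells. The 29 TTS NK cells limit the precision of Fasl, Prf1, and Cma1, which rest on 30, 53, and 13 UMIs there.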
